A study of Mus musculus with 2 samples.

Results

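The nuclear-encoded genes of the mitochondrial respiratory chain and of ATP synthase were described in the nucleoplasmic RNA of mouse macrophages. Members were all genes whose symbol begins as a subunit of complexes I to V does (Nduf, Sdh, Uqcr, Cyc1, Cox4 to Cox8, Atp5) and that have a protein-coding transcript in the annotation. The rule took 95 genes under 94 symbols out of 22028 protein-coding and 55536 annotated genes, because Atp5o has 2 entries. By complex there were 36 genes of complex I, 4 of complex II, 9 of complex III, 20 of complex IV and 17 of complex V, and 9 further members that are not subunits: the assembly factors Ndufaf1 to Ndufaf8, and Atp5s. Ndufa4 and Ndufa4l2 carry complex I symbols but were placed with complex IV, where the Ndufa4 protein is found. Another 13 genes matched by symbol and had no coding transcript.

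The series holds 1 group. The cells were macrophages grown in culture from the bone marrow of C57BL/6J mice. They had 12 h of Lipid A at 100 ng/ml, a washout of 12 h and 0 min of restimulation. Lipid A is the lipid anchor of lipopolysaccharide, a coat molecule of Gram-negative bacteria that macrophages sense. Nucleoplasmic RNA was sequenced after ribosomal depletion in 2 biological replicates, from 1 µg of RNA for replicate 1 and 500 ng for replicate 2. No untreated, newly restimulated or cytoplasmic sample was analysed here, so nothing below compares conditions, and the effects of RNA amount and of replicate cannot be told apart. Sex and age of the mice are not given in the labels.

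The chain passes electrons from NADH (complex I) and succinate (complex II) through ubiquinone to complex III, then through cytochrome c to complex IV, which reduces oxygen. Complexes I, III and IV pump protons across the inner mitochondrial membrane, and complex V, the ATP synthase, uses the returning protons to make ATP. All complexes except complex II combine subunits encoded in the nucleus with subunits encoded in mitochondrial DNA. Macrophages exposed to lipopolysaccharide are known for a shift of metabolism toward glycolysis. The RNA measured here is that of the nucleoplasmic fraction, meant to hold precursors and mRNA not yet exported, and not the pool that is translated. The fraction also held mRNAs of mitochondrial DNA, at 3.30% and 6.77% of counts. A carry-over of cytoplasmic mRNA of the members therefore cannot be told apart from their nuclear RNA.

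Levels are given in TPM, a read abundance per transcript length scaled to the same total in each library. The library of replicate 1 held 22907877 expected counts over annotated genes and that of replicate 2 held 18612405. Of the total of 998416 and 999454 TPM over annotated genes, protein-coding genes held only 274829 and 295499, so the TPM of a coding gene is small here by its scale. All 10 macrophage markers had 10 TPM or more in each library. None of 5 neutrophil, 4 T and B cell, 4 stromal, 6 muscle and heart, and 5 testis markers reached 1 TPM in each library of the gene-level tables. In the second quantification, a separate set of values derived straight from the reads, the muscle marker Actn2 stood at 4.31 and 10.2 TPM and the T cell marker Cd3d at 1.76 and 4.20.

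Nearly all of the chain was present in the nucleoplasm. With a gene called present at 1 TPM or more in each library, 86 of 95 members were present, beside 44.4% of all protein-coding genes. These were all 36 genes of complex I, all 4 of complex II, all 9 of complex III, 12 of 20 of complex IV, 16 of 17 of complex V and all 9 others. The second quantification also gave 86, beside 45.3%, but not of the same genes: complex IV had 13, with Cox7a1, and the assembly members 8 of 9, without Ndufaf2 (0.673 TPM in replicate 1). A level of 10 TPM or more in each library was reached by 39 members, beside 19.7% of protein-coding genes. Complex V had 11 of its 17 genes there, complex IV 9 of 20, complex III 3 of 9, complex II 3 of 4 and complex I 13 of 36, and none of the 9 others did. The members not present were Cox4i2, Cox6a2, Cox6b2, Cox7a1, Cox7b2, Cox8b, Cox8c, Ndufa4l2 and the second Atp5o entry.

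The median member stood at 10.7 TPM in replicate 1 and 8.22 in replicate 2, beside 0.420 and 0.445 for all protein-coding genes. On the log2(TPM + 0.1) scale the median over all 95 members was 3.25 ± 0.27 (SD, n = 2). By complex, the median on that scale was 4.27 ± 0.13 for complex V, 4.15 ± 0.35 for complex II, 3.40 ± 0.27 for complex III, 3.13 ± 0.42 for complex IV and 3.05 ± 0.23 for complex I, and 1.90 ± 0.12 for the assembly factors and Atp5s. The medians of complexes V and II overlapped over the 2 libraries, and so did those of complexes I, III and IV. The median of complex IV depended on its genes at or near 0: without Ndufa4 and Ndufa4l2 it was 3.68 ± 0.05, and over its genes at 0.1 TPM or more in both libraries 4.11. In bulk RNA, fewer transcribing cells and less RNA per cell cannot be told apart.

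**Figure D1:**
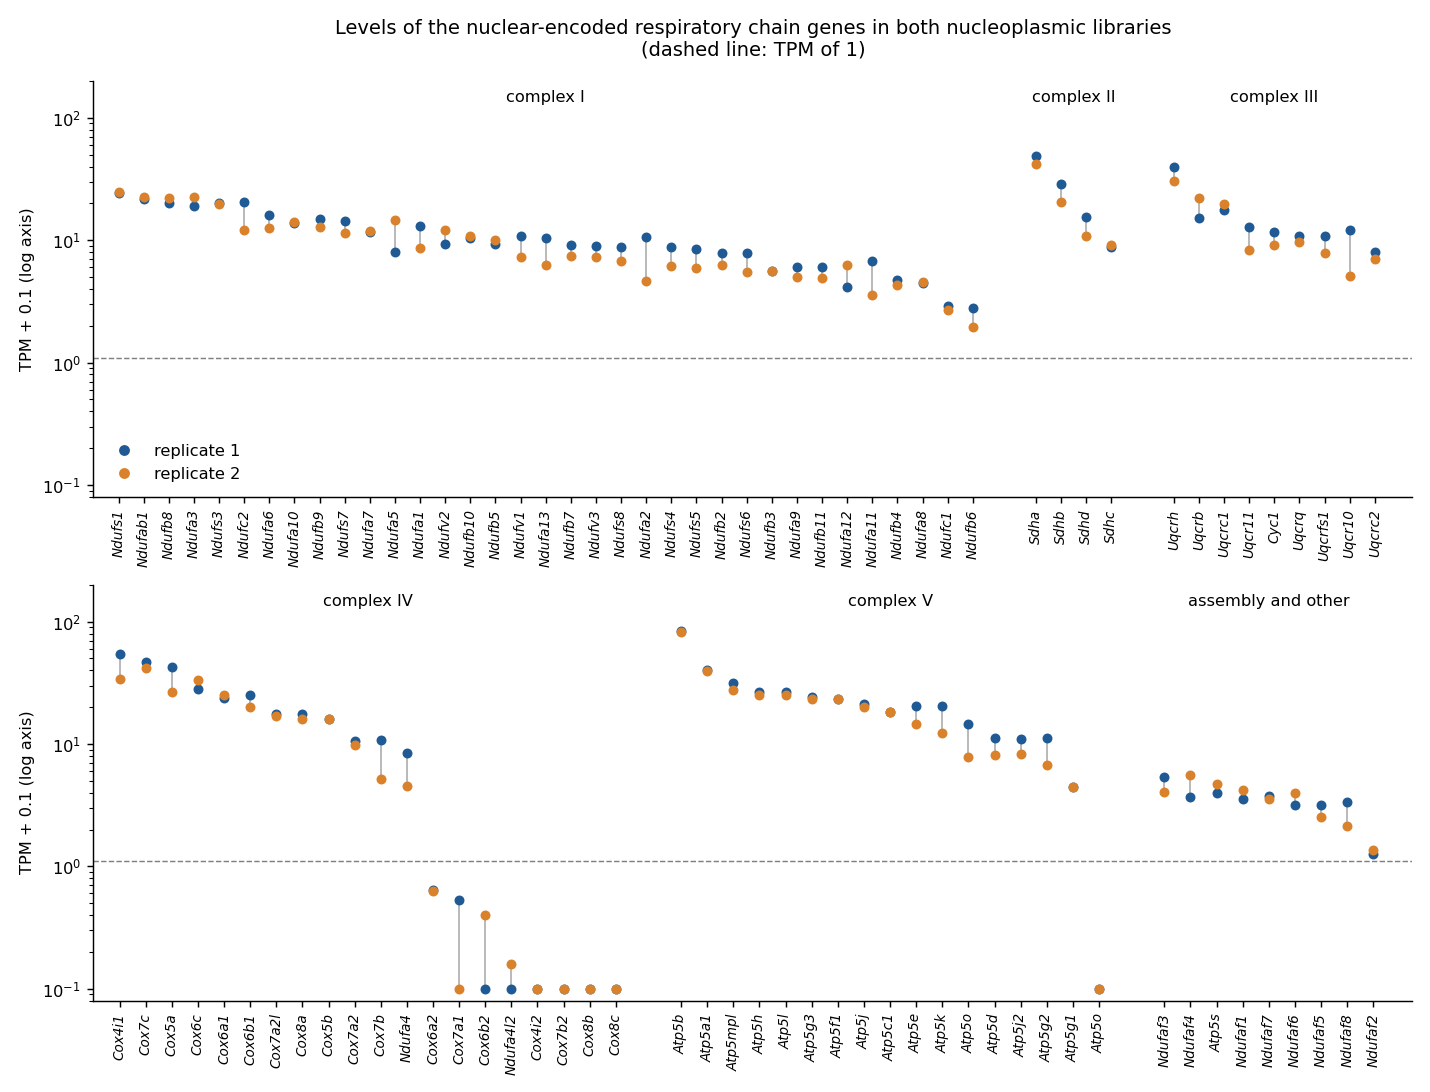
Level of the members, 1 gene of complex I left out, in replicate 1 (blue) and replicate 2 (orange), as TPM + 0.1 on a log axis, grouped by complex and ordered by the mean. The dashed line marks a TPM of 1, and the 9 genes under it are 8 genes placed with complex IV and the second entry of Atp5o.

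Among the 86 members present, mean levels ranged over 68.3-fold, from Ndufaf2 to Atp5b. The order of members was alike in the 2 libraries, with a Spearman rho of 0.936 across these 86 genes, which share the library and the annotated length and are not independent replicates. By complex that rho was 0.862 for complex I (n = 36), 1 for complex II (n = 4), 0.717 for complex III (n = 9), 0.972 for complex IV (n = 12) and 0.962 for complex V (n = 16). The median SD between libraries of a member's log2 level was 0.21, against an SD of 1.13 among the members, so the order of distant members, but not of close neighbours, stood above the replicate spread.

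By gene TPM, complex I, the NADH dehydrogenase, was led by a core subunit and by a shared carrier protein. Ndufs1, the largest subunit, which carries iron-sulfur clusters in the NADH-oxidising arm (ENSMUSG00000025968.16, mm10 chr1:63143596-63176833, minus strand), had 24.0 TPM in replicate 1 and 24.6 in replicate 2. Ndufab1, the acyl carrier protein that also serves mitochondrial fatty acid synthesis, had 21.7 and 22.5 TPM. Ndufs1 was above the rest of the complex in both libraries, and the next genes, among them Ndufb8 (19.9 and 21.9 TPM), Ndufa3 (19.1 and 22.3) and Ndufs3 (20.2 and 19.7), overlapped each other in level. Coding transcripts held 41.0% and 26.4% of the TPM of Ndufs1 and 22.8% and 19.7% of that of Ndufab1. For Ndufb8 they held 79.4% and 71.2%. The lead thus did not carry over to coding transcripts of the gene-level quantification. The lowest gene of the complex was Ndufb6, an accessory subunit of the membrane arm, with 2.69 and 1.85 TPM, or 33.11 and 20.15 expected counts.

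The 7 core subunits that the nucleus encodes, which carry the redox centres, had a median of 14.4 and 12.1 TPM, and the 29 accessory subunits 8.93 and 6.22 TPM. By module, the 10 genes of the N module (NADH oxidation) had a median of 9.88 and 7.19 TPM, the 6 of the Q module (ubiquinone reduction) 11.5 and 13.0, and the other 20 genes, mostly of the membrane arm, 9.09 and 6.80. The Q module was above the N module in both libraries, by less than the spread among the genes of either. Core genes spanned from Ndufs8 (8.67 and 6.66 TPM) to Ndufs1. The flavoprotein pair that takes up NADH was split between libraries in the gene-level tables: Ndufv1, which binds NADH, had 10.8 and 7.17 TPM, and Ndufv2 9.15 and 12.1. In the second quantification Ndufv2, with 8.10 and 9.68 TPM, was above Ndufv1, with 7.47 and 7.60, in both libraries. Ndufs7, which holds the last iron-sulfur cluster before ubiquinone, had 14.4 and 11.5 TPM. Several accessory genes differed more between libraries than these core genes, such as Ndufa5, with 7.96 and 14.6 TPM from 55 and 75 counts, and Ndufa11, with 6.64 and 3.47 TPM from 72 and 43 counts.

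Complex II, succinate dehydrogenase, is shared by the chain and the citric acid cycle and has no subunit encoded in mitochondrial DNA. Its 4 genes kept the same order in both libraries. Sdha, the flavoprotein that oxidises succinate (ENSMUSG00000021577.14, chr13:74322254-74350280, minus strand), had 48.9 and 41.5 TPM. Sdhb, the iron-sulfur subunit, had 28.6 and 20.6 TPM. The membrane anchors were lower, Sdhd with 15.5 and 10.7 TPM and Sdhc with 8.69 and 9.00. The order of the anchors turned in the second quantification, with Sdhd at 6.15 and 5.74 TPM and Sdhc at 6.19 and 9.21. By gene TPM the catalytic genes were above the anchors in each library, and the groups did not overlap. Coding transcripts held 54.8% and 57.6% of the TPM of Sdhb and 100% of that of each anchor. In coding transcripts Sdhb and Sdhd thus lay close together and overlapped over the libraries.

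Complex III, the cytochrome bc1 complex, was led by 3 genes with 10 TPM or more in each library. Uqcrh, the hinge subunit at the cytochrome c1 side (ENSMUSG00000063882.12, chr4:116066965-116075071, minus strand), had 39.7 and 30.7 TPM. Uqcrb, a small subunit near the ubiquinone sites, had 15.2 and 22.1, and Uqcrc1, a core protein, 17.4 and 19.6. Uqcrb and Uqcrc1 did not differ beyond the spread between libraries. The redox subunits Cyc1 (cytochrome c1, 11.5 and 9.12 TPM) and Uqcrfs1 (the Rieske iron-sulfur protein, 10.7 and 7.71) lay lower. Uqcrc2, the other core protein, was the lowest by mean in the gene-level tables at 7.95 and 6.94 TPM, though Uqcr10 (5.02 TPM) was lower in replicate 2. In the second quantification Uqcrc2 had 7.45 and 8.53 TPM, and Uqcrfs1 was the lowest with 4.06 and 3.93.

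In complex IV, cytochrome c oxidase, the nucleus encodes the small subunits around a catalytic core made in the mitochondrion. Cox4i1 (ENSMUSG00000031818.12, chr8:120668222-120674207, plus strand), the common form of a subunit that joins the core early in assembly, had 54.5 and 34.2 TPM. Cox7c had 46.4 and 42.1 TPM, and Cox5a, the partner of Cox4, had 42.4 and 26.8. These 3 genes overlapped in level. Cox6c (28.1 and 33.4 TPM) came next, and Cox5b, which binds zinc, had 15.9 and 15.8 TPM. Of the genes present, the lowest was Ndufa4, a late subunit of the complex, with 8.39 and 4.45 TPM, next to Cox7b with 10.7 and 5.04.

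Several subunits of complex IV exist in alternative forms from separate genes, a common form and a form known from muscle, lung or testis. For each such subunit the nucleoplasm of these macrophages held the common form, and the restricted form was at or near 0 in the gene-level tables. The common forms had between 155 and 1165 expected counts over both libraries, and each restricted form had between 0 and 13. The lower bounds and ratios below are of TPM over both libraries, with exact (Clopper-Pearson) 95% intervals that cover counting error only. A gene with 0 counts was set at a floor of 3 counts over both libraries.

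Cox4i2, the form of Cox4 known from lung and from low oxygen, had 0 counts in both libraries, and Cox4i1 with 1165 counts was at least 405-fold higher in the gene-level tables. The pair stood nearer in the second quantification, with Cox4i2 at 0.121 and 0.204 TPM and Cox4i1 at 33.4 and 35.4. Cox6a2, the heart and muscle form, had 0.540 and 0.530 TPM from 13 counts, against 23.6 and 25.2 TPM of Cox6a1, a 45.6-fold difference (26.4 to 86.2). In the second quantification Cox6a1 had 10.4 and 14.2 TPM and Cox6a2 0.650 and 0.646, and their difference on the log2(TPM + 0.1) scale was 4.03 in place of 5.27. Cox6a2 was the one restricted form with counts in both libraries of the gene-level tables. Its exons overlap those of Itgad on the other strand. The use of strand in counting is not known here, so these counts may include reads of Itgad. For the testis form Cox6b2 there were 2 counts, all in replicate 2, and Cox6b1 (24.99 and 19.89 TPM) was 155-fold higher, with a wide interval of 42.8 to 1288.

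Cox7a1, the heart and muscle form of Cox7a, had 2 counts, all in replicate 1, and Cox7a2, with 10.6 and 9.68 TPM, was 52.0-fold higher (14.2 to 433). Another gene of that family, Cox7a2l, which acts in joining complexes III and IV into supercomplexes, had 17.6 and 16.8 TPM and was above Cox7a2 in both libraries. That order turned in the second quantification, where Cox7a2 had 13.8 and 14.1 TPM and Cox7a2l 7.23 and 9.29. The second quantification also placed Cox7a1 at 1.16 and 2.37 TPM, the only restricted form above a TPM of 1 there.

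In the gene-level tables neither Cox7b2, Cox8b nor Cox8c had a count in either library. Cox7b (155 counts) was at least 41.2-fold higher than the testis form Cox7b2. Cox8a, with 17.6 and 15.9 TPM from 292 counts, was at least 41.4-fold higher than the muscle form Cox8b and at least 69.9-fold higher than the testis form Cox8c. In the second quantification Cox8b stood at 0.964 and 0.203 TPM and Cox7b2 at 0.276 and 0.139, and Cox8c was again at 0. Ndufa4l2, a gene known for its response to low oxygen, had 1 count, all in replicate 2, and Ndufa4 (158 counts) was 213-fold higher, with an interval of 37.6 to 8448. Exons of Ndufa4l2 overlap those of Shmt2 on the other strand, and reads may be mixed. Over the 8 restricted forms, the common form was above the restricted form by a median of 6.63 ± 0.68 (SD, n = 2) on the log2(TPM + 0.1) scale. With 4 of the 8 forms at 0 that value depends on the pseudocount, and it was 4.07 with a pseudocount of 1. Of the muscle and heart markers, Ckm, Myh6 and Actn2 had 0 counts in both libraries of the gene-level tables.

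**Figure D2:**
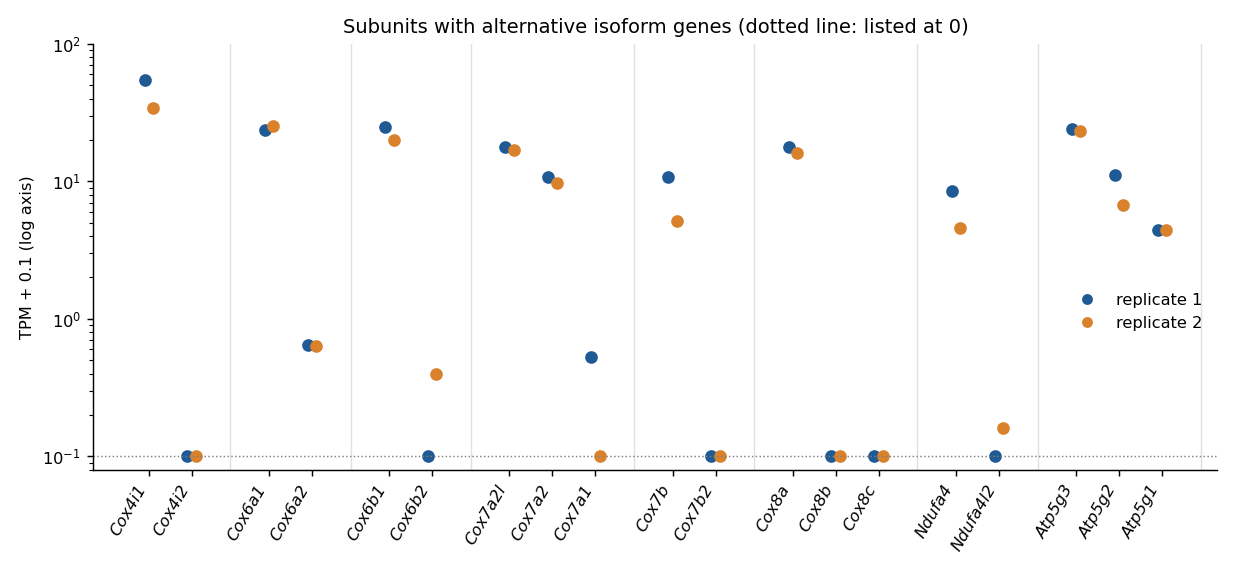
Levels of subunit genes with alternative forms, as TPM + 0.1 on a log axis, in replicate 1 (blue) and replicate 2 (orange), grouped by subunit. The restricted forms Cox4i2, Cox7b2, Cox8b and Cox8c lie on the dotted line, listed at 0 in both libraries, while the genes of the c ring (Atp5g1, Atp5g2 and Atp5g3) are all above 4 TPM.

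The promoters of such a pair differ in sequence. Cox8a with Cox8b and Cox7a2 with Cox7a1 are shown as examples. Each pair makes the same subunit, and only the first gene of each was above a TPM of 1 in the gene-level tables. Sequences are from RefSeq on GRCm38.p6, the assembly that mm10 names, and run 5′ to 3′ on the strand of the gene up to its start. They cover chr19:7217617-7217866 (minus strand) for Cox8a, chr7:140900447-140900696 (minus) for Cox8b, chr9:79759879-79760103 (minus) for Cox7a2 and chr7:30183921-30184143 (plus) for Cox7a1. No annotated exon lies in these stretches, and capitals mark CpG dinucleotides, of which the stretches hold 11, 1, 12 and 3 in that order.
Cox8a: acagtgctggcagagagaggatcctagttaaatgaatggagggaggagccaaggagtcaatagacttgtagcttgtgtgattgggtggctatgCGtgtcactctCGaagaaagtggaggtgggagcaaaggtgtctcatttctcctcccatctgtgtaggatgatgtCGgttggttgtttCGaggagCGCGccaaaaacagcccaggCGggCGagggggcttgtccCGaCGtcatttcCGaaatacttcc
Cox8b: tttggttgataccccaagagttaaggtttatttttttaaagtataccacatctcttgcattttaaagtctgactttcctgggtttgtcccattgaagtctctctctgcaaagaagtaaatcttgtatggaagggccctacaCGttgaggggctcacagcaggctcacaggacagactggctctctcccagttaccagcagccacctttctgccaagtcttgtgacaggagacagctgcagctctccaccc
Cox7a2: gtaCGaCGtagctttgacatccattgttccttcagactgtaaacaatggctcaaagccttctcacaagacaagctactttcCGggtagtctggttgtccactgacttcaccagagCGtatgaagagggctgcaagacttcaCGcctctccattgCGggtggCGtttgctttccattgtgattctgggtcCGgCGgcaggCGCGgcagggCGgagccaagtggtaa
Cox7a1: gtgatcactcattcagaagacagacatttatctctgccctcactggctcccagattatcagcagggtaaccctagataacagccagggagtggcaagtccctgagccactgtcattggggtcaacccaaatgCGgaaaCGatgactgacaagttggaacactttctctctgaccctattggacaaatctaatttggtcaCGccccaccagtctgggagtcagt

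A promoter sequence was matched for 76 of 95 members. In the 250 bases before the RefSeq start, the 72 matched members present held a median of 15 CpG (range 4 to 35). The 4 matched members not present, Cox6b2, Cox7a1, Cox7b2 and Cox8b, held a median of 6 (range 1 to 9). Over all 7942 matched protein-coding genes present the median was 16, and over 16699 matched protein-coding genes 10. The CpG number of the present members was thus near that of all matched protein-coding genes present, which include the members. Here and for the motifs below, a member with several windows was given the one nearest its annotated start. A gene of the background was given the first one listed.

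Complex V, the ATP synthase, had the highest gene of the whole set. Atp5b, the catalytic beta subunit (ENSMUSG00000025393.12, chr10:128083273-128090391, plus strand), had 83.4 TPM in replicate 1 and 82.6 in replicate 2, from 2561 and 2034 expected counts. Atp5a1, the alpha subunit that alternates with it in the F1 head, had 40.5 and 39.7 TPM, and Atp5mpl, a small membrane subunit, 31.4 and 27.6. In gene TPM, Atp5b was above Atp5a1 in both libraries by more than the spread between them. Coding transcripts held 48.1% and 44.3% of the TPM of Atp5b, and 93.4% and 92.3% of that of Atp5a1. The gap thus does not carry over to coding transcripts. The F1 head holds both proteins in equal number. In F1 the central stalk genes followed, with Atp5c1 (gamma) at 18.13 and 17.99 TPM, Atp5e (epsilon) at 20.2 and 14.6 and Atp5d (delta) at 11.2 and 8.07. The 5 F1 genes had a median of 20.24 and 17.99 TPM, and the 12 other entries 20.9 and 16.0.

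By gene TPM, the peripheral stalk, which holds the F1 head still, was even in 3 of its 4 genes. Atp5h (subunit d) had 26.5 and 25.2 TPM, Atp5f1 (subunit b) 23.4 and 23.3, and Atp5j (coupling factor 6) 21.3 and 19.8. Atp5o, the oligomycin sensitivity protein at the top of the stalk, was lower, with 14.4 and 7.66 TPM. The small membrane subunits ranged wider. Atp5l (subunit g) had 26.5 and 25.1 TPM, Atp5k (subunit e), a partner of it in pairing of ATP synthases, 20.5 and 12.15, and Atp5j2 (subunit f) 10.8 and 8.18.

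The c ring of the ATP synthase is made of 1 mature protein encoded by 3 genes that differ in the part cleaved at import. Unlike the alternative forms of complex IV, all 3 were present. Atp5g3 had 24.0 and 23.2 TPM, Atp5g2 11.1 and 6.61, and Atp5g1, the lowest gene of complex V above a TPM of 1, 4.31 and 4.36. Over both libraries Atp5g3 was 2.60-fold above Atp5g2 (2.24 to 3.03) and 5.45-fold above Atp5g1 (4.66 to 6.39). Atp5g2 was the member with the least certain assignment of reads, with a posterior SD of 12.9% of its count in replicate 2. The second Atp5o entry, which runs into the first and overlaps its exons, had 0 counts in both libraries.

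The 9 members that are not subunits had a lower median, 3.43 and 3.87 TPM, than each complex, though single subunits lay lower still, such as Ndufb6. Ndufaf3 and Ndufaf4, which act together in assembly of complex I, had 5.28 and 3.97 TPM and 3.60 and 5.43 TPM. Atp5s had 3.85 and 4.63 TPM, and the lowest was Ndufaf2 with 1.16 and 1.27 TPM from 15 and 13 counts. None of the 9 reached 10 TPM in either library.

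Of the 13 symbol matches without a coding transcript, 9 had 0 counts in both libraries, and Ndufa11b and Ndufab1-ps had at most 5. The other two were higher. Ndufb4c, a processed pseudogene, had 14.4 and 9.08 TPM, above Ndufb4 itself with 4.63 and 4.21 TPM. Ndufb4 and Ndufb4c had the same posterior SD of count, 3.63 and 2.28, and their reads may be split between near-identical copies, so the values of both are uncertain. Ndufb1-ps, annotated as a bidirectional promoter long noncoding RNA, had 9.97 and 4.79 TPM.

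Together the 95 members held 1360 and 1190 TPM, or 0.129% and 0.124% of expected counts. The 13 mRNAs of mitochondrial DNA, which encode the other subunits of complexes I, III, IV and V, held 35503 and 83710 TPM, or 3.30% and 6.77% of counts. The nuclear-encoded share differed little between libraries, while the mitochondrial share was higher in replicate 2. Each of the 13 mitochondrial mRNAs was higher in replicate 2, by a median of 1.28 on the log2 scale (range 0.45 to 2.32). Of these, 12 were also higher in the second quantification, and mt-Co2 was lower there, with a log2 ratio of -0.52.

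Replicate 2 was then set against replicate 1 for each member, as a log2 ratio of counts after TMM scaling. With 1 library on each side, a ratio has no replicate check. None of the 61 members with a mean count of at least 100 differed by a log2 ratio of 1 or more, beside 2.00% of the 10198 genes of all kinds with that count. The widest ratios among these 61 were Ndufc2, with 252 and 108 counts and a log2 ratio of -0.96, and Uqcrb, with 134 and 174 counts and 0.63. In the second quantification the count was 0 of 80, beside 3.31%. With a lower limit of 0.58 on the log2 ratio, 7 of the 61 differed (11.5%), beside 9.88%. Of these, Ndufc2, Ndufa13, Cox4i1, Atp5o and Atp5g2 were lower in replicate 2 (5, beside 5.78% of genes lower) and Uqcrb and Ndufaf4 were higher (2, beside 4.11% higher). With a mean count of 50 as the limit, 2 of 81 members differed by 1 or more, beside 2.77% of 11895 genes. Both were lower in replicate 2, as were 1.52% of those genes: Uqcr10, with 75 and 26 counts (log2 ratio -1.26, interval -1.98 to -0.61), and Ndufa2, with 104 and 40 counts (-1.11, -1.69 to -0.58). In the second quantification these ratios were -0.59 for Uqcr10 and -0.95 for Ndufa2.

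Most members leaned to lower values in replicate 2. Of the 86 members present, 57 (66.3%) were lower in replicate 2, beside 51.9% of protein-coding genes present. The median log2 ratio was -0.14 over the members and -0.01 over those protein-coding genes. By complex it was -0.31 for complex III, -0.28 for complex II with all 4 genes lower, -0.15 for complex IV, -0.14 for complex I, -0.10 for complex V and 0.05 for the 9 others. All 10 macrophage markers were also lower in replicate 2, with a median of -0.32, and their part in the members' lean was not tested.

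**Figure D3:**
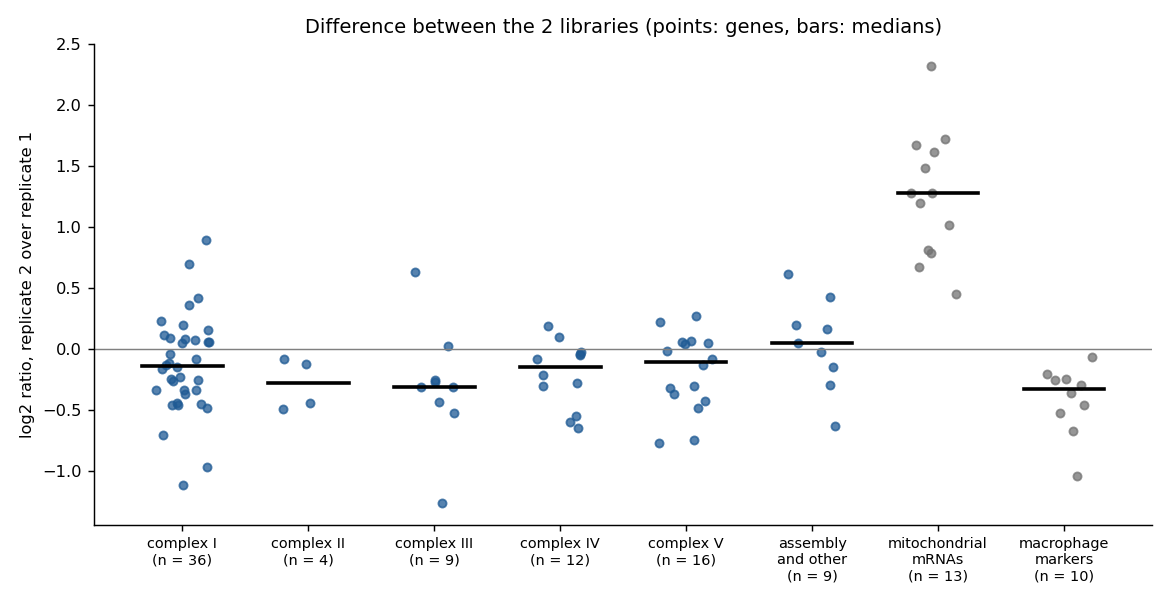
Log2 ratio of replicate 2 over replicate 1 for members present, by complex (blue), and for mitochondrial mRNAs and macrophage markers (grey), with points for genes and bars for medians. In the gene-level tables shown, the members scatter around a median of -0.14, and all 13 mitochondrial mRNAs lie above 0 with a median of 1.28.

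The lean went with transcript length, which is short in this set. The median effective length, the number of positions at which a fragment can start, was 594 bases for the members and 2297 for other protein-coding genes that were present and had a mean count of 50 or more. With the members split evenly into 3 length classes, the shortest (28 genes) had a median log2 ratio of -0.27, the middle class (29 genes) -0.23 and the longest (29 genes) -0.02. Over the same length classes the other protein-coding genes had -0.24 (118 genes), -0.13 (657) and -0.0044 (8632). Across the 86 members, ratio and length had a Spearman rho of 0.249, as a description over genes that share libraries and differ in depth.

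Nuclear RNA holds transcripts that are not fully spliced, and the transcript-level tables split a gene's TPM by annotated transcript type. Over the 86 members, coding transcripts held a median of 79.3% of the gene's TPM (79.4% and 79.3%), beside 73.7% ± 0.5 (SD, n = 2) for all protein-coding genes present. In 63 of 86 members (73.3%) they held over 50% in both libraries, beside 72.0% of those genes. In 18 members (20.9%) they held under 50% in both, among them Atp5b, the highest member, with 48.1% and 44.3%.

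A retained-intron transcript was annotated for 51 of the 86 members, and the share of such transcripts had a median of 24.1% ± 1.7 (SD, n = 2) over them. Over the 6143 protein-coding genes with one, it was 30.0% ± 1.0. A share over 50% in both libraries was found for 8 of the 51 (15.7%), beside 15.4% of the 6143, so the members were near the background. By complex the median share was 34.5% for complex I (21 genes), 23.3% for complex III (5), 14.9% for complex IV (10), 21.3% for complex V (10) and 52.3% for the assembly factors (4), and the 1 such gene of complex II, Sdha, had 42.7% and 41.5%. A read in a retained intron cannot be told apart from a read of a precursor not yet spliced.

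By the mean of the libraries the highest shares in the gene-level quantification were those of Atp5j, Ndufab1, Ndufaf7 and Ndufb4, which lay close together. Atp5j had 70.7% and 82.3%. For Ndufab1 the share was 73.9% and 77.2%, and for Ndufaf7, an arginine methyltransferase that acts in assembly of complex I, 78.5% and 71.9%. Ndufb4 had 62.0% and 88.4%, the highest value of replicate 2. In the second quantification Ndufa6 (78.0% and 84.4%) and Ndufb4 (75.4% and 85.4%) were highest by that mean, and Ndufaf7 had 48.3% and 46.5%. The others over 50% in both libraries of the first were Ndufs1, Ndufa6, Ndufaf3 and Ndufa10. Of these 8 genes, 4 overlap exons of a gene on the other strand, such as Gabpa at Atp5j and Eef1b2 at Ndufs1, beside 27 of the 86 members (31.4%). The use of strand in counting is not given in the sources used here, so reads of these gene pairs may be mixed.

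**Figure D4:**
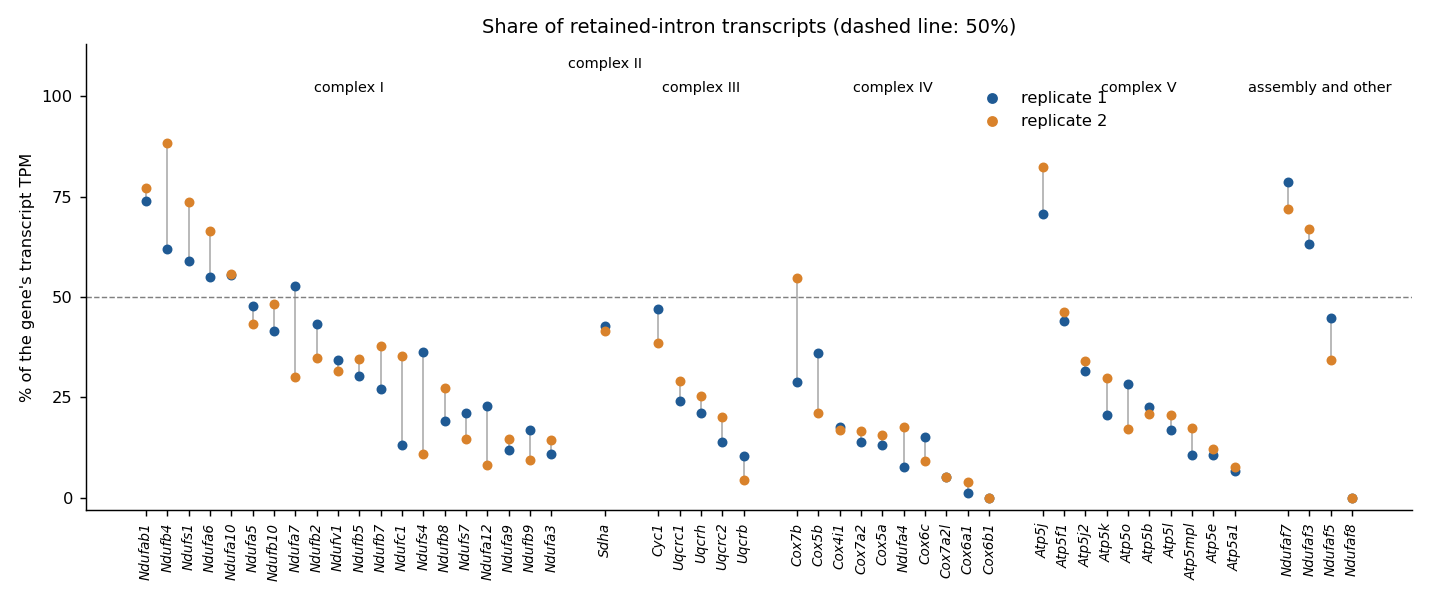
Share of each gene's transcript TPM, in percent, assigned to retained-intron transcripts in replicate 1 (blue) and replicate 2 (orange), for members present with such a transcript, 1 gene of complex I left out. The dashed line marks 50%, and 8 members lie above it in both libraries.

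Other transcript types dominated a few members. Transcripts annotated for nonsense-mediated decay held over 50% in both libraries in 1 of 21 members that have one, Ndufa3, with 59.4% and 58.2%, beside 2.36% of protein-coding genes with such a transcript. Ndufa3 had 43.1% and 51.5% in the second quantification, where none of the 21 passed. Processed transcripts, which carry no open reading frame, held over 50% in Ndufaf4 (81.3% and 82.7%) and Ndufaf6 (55.8% and 63.8%), 2 of the 37 members that have one, beside 4.04% of 4651 genes. Ndufs3 stood at the limit, with 50% and 62.3%, and in the second quantification, where 4 members passed, it had 81.3% and 91.5%. These members were named after their values were seen.

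The second quantification gave lower TPM for most members. It was lower for 69 of 86 (80.2%), with a median log2 difference of -0.52, beside 86.0% of protein-coding genes lower and a median of -0.61. It was lower by a log2 difference of 1 or more for 15 members (17.4%), beside 13.2%. The largest differences were those of Atp5g2, with 2.550 and 4.003 TPM in place of 11.1 and 6.61, Ndufa1, with 4.82 and 4.38 in place of 12.9 and 8.56, and Ndufb7, with 3.61 and 3.48 in place of 8.96 and 7.38. In the other direction Ndufs8 had 16.1 and 14.5 TPM in place of 8.67 and 6.66. The order of the 86 members was kept in large part, with a Spearman rho of 0.887 between quantifications of the same reads.

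**Figure D5:**
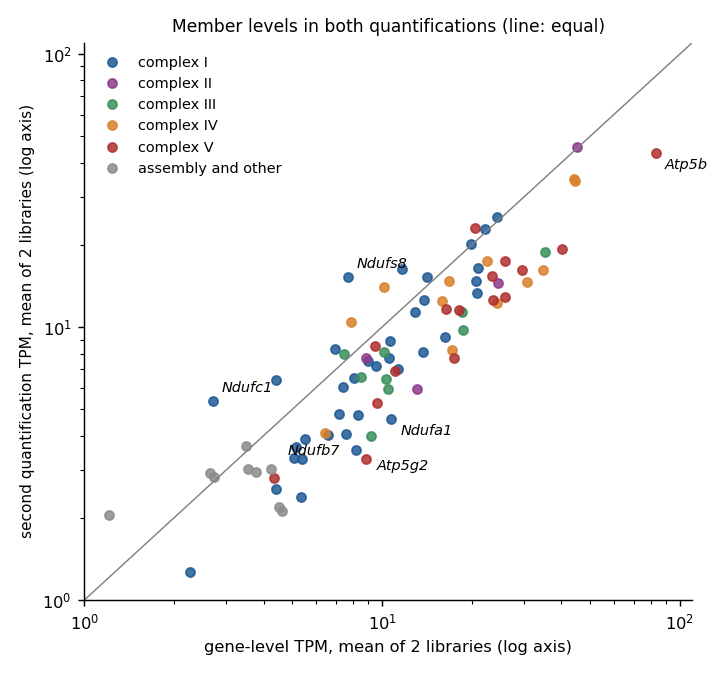
Mean TPM of each of the 86 members in the second quantification (vertical, log axis) against the gene-level tables (horizontal, log axis), coloured by complex. Most points, 69 of 86, lie under the line of equal values, with Atp5g2 far below it and Ndufs8 above.

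The genes around the chain were read from a list outside the symbol rule. Cycs, the somatic cytochrome c that links complexes III and IV, had 12.1 and 11.0 TPM, and the testis form Cyct had 0 counts, which allows up to 0.246 and 0.278 TPM. Of 32 further assembly factors and regulators of the complexes, 30 were present, and Lyrm7 and Sdhaf4 were not. The highest was Atpif1, the inhibitor that holds the ATP synthase from running backwards, with 35.7 and 43.6 TPM, followed by Cox17, a copper chaperone of complex IV, with 35.5 and 22.5. Cox20, which assists assembly of the Cox2 protein, had 9.31 and 23.5 TPM and a log2 ratio of 1.73, chosen here after its values were seen.

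Of 12 transcriptional regulators of mitochondrial genes, 11 were present. The exception was Ppargc1a, a coactivator of mitochondrial biogenesis in muscle, liver and brown fat, with 0 counts, which allows up to 0.0368 and 0.0433 TPM. The second quantification gave it 0.347 and 0.398 TPM. Its relatives were present, Pprc1 with 15.4 and 15.0 TPM and Ppargc1b with 2.65 and 2.16. Among DNA-binding factors, Esrra, an orphan nuclear receptor, had 21.2 and 17.7 TPM, Nrf1 10.3 and 8.97, Yy1 10.4 and 8.45, and Gabpa 7.55 and 8.39. Tfam, the packaging and transcription factor of mitochondrial DNA, had 2.64 and 1.58 TPM.

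Motifs of 4 such factors were searched on both strands in the 250 bases before the RefSeq start of the 72 matched members present. The NRF1 motif, GCGCA and GCGC with any 1 base between them, was found in 13 members (18.1%), beside 9.66% of the 7942 matched protein-coding genes present. The ETS motif CCGGAAG, which GABP binds, was found in 13 (18.1%), beside 16.1%, the SP1 motif GGGCGG in 28 (38.9%), beside 59.9%, and the YY1 motif AANATGGCG in 1 (1.39%), beside 2.46%. Members with the NRF1 motif had a median of 8.84 TPM and those without it 10.5, while members with the ETS motif had 17.4 and those without it 9.57. A match is a description of letters and not a bound site.

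The NRF1 motif is shown for Sdha and Atp5h, the members with the highest mean TPM among those that hold it, with the motif in capitals. The Sdha window holds 3 matches, and only the one farthest from the start is shown. It begins 98 bases before the start, in chr13:74350319-74350348. The match in Atp5h begins 141 bases before the start, in chr11:115420041-115420070. Both genes are on the minus strand of GRCm38.p6.
Sdha: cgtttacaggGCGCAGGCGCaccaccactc
Atp5h: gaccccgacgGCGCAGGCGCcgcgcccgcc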

How the data were processed

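Total RNA-seq libraries of 2 biological replicates of 1 group were analysed. The deposited gene-level tables hold expected counts and TPM per gene, and matching tables hold both per transcript. A further deposited table per library, the second quantification, holds estimated counts and TPM per transcript, which were summed per gene. Per the notes deposited with them, the authors used mm10 and GENCODE mouse release 21, made the gene-level values from transcriptome alignments, and made the second quantification from reads without such alignments. Programs and strand setting: not given in the sources used here. Library totals were 22907877 and 18612405 expected counts, and 30419009 and 32279044 estimated counts. Entries that name no gene (26345 per library, 1.01% and 0.336% of counts) were left out, and 86 genes lack a second value.

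Symbols and transcript types came from the identifiers of the files, positions from GENCODE. Expected counts were rounded, and ratios used TMM factors of edgeR 4.0.16 in R 4.3.3 over 14892 genes kept by filterByExpr, and a prior count of 0.5. DESeq2 1.42.0 size factors were an alternative. Levels used log2(TPM + 0.1). Intervals are exact 95% intervals, and they and the floor of 3 counts cover counting error only. A group of 2 libraries allows no test between conditions, so no p-value was computed, and the SD measures the spread between these 2 samples. The ratio and scaling steps were tested on simulated data. Members and lists were chosen with earlier results of these data known. Full values were given for the 3 highest and the lowest gene of each complex, genes of the isoform sets, genes apart between libraries, and the 3 members with the highest retained-intron share or the widest gap between quantifications. The values of 1 gene of complex I are not reported here by themselves. Python 3.11.15 was used.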

Additional observations from a re-analysis of the deposited data

How the results depend on the processing

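No paired analysis was possible because the series holds 1 group, whose 2 libraries have nothing to be paired with. The median level of all members, 3.25 on the log2(TPM + 0.1) scale, was 2.91 in the second quantification and 5.05 with TPM rescaled to protein-coding genes, a shift that follows from the smaller total. It lay between 3.06 and 3.44 with either library left out. Members at the TPM minimum numbered 86, not all of them the same genes, with either library left out, in the second quantification and with 10 or more expected counts in each library, and 39 with a limit of 10 TPM. The median gap between common and restricted forms, 6.63, was 5.29 in the second quantification and 4.07 with a pseudocount of 1, and lay between 6.15 and 7.11 with either library left out. Cox7a2 over Cox7a2l reversed from -0.76 to 0.76 in the second quantification, and the cause was not tested.

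The median log2 ratio between libraries, -0.14, was -0.10 with library totals alone and kept its sign under the other alternatives run. Members apart numbered 0 under all scalings, with a prior count of 2 and in the second quantification, 2 at a mean count of at least 50 and 7 at an absolute log2 ratio of at least 0.58 (5 lower and 2 higher in replicate 2, beside 9.88% of all genes). The median retained-intron share of 24.1% was 28.4% in the second quantification and 20.4% among members at a TPM of at least 10, and 22.9% to 25.3% with either library left out. Summed TPM of the members, 1275, was 911 in the second quantification, and 1190 to 1360 with either library left out. For single complexes and isoform pairs, 102 values under an alternative stayed within the SD between libraries, the counting interval or 1.5 times the count, and 37 moved further without a change of sign. Those of the 102 that leave 1 library out of a mean of 2 lie within the SD between libraries by construction, so they show no stability. A member with 20 to 100 counts carries counting error that hides small differences, and a restricted form with 0 counts in the gene-level tables is not shown to be absent: the second quantification gave estimated counts to Cox4i2 (5 and 7), Cox7b2 (7 and 3) and Cox8b (11 and 2).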
